A study of Homo sapiens with 6 samples.

Results

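Nucleoporins build the nuclear pore, and importins, exportins and the Ran GTPase carry proteins and RNA through it. The genes described here are those in the expression table whose symbol starts with NUP, KPNA, KPNB, IPO or XPO followed by a number or T, or is TPR, POM121, NDC1, RAE1, SEH1L, TNPO1, CSE1L, RAN, RANBP1, RANBP2, RANGAP1 or RCC1. Of 13439 genes listed, 51 had such a symbol. NUP210L, at 0 to 0.09 CPM (counts scaled to a common library size, TMM-normalized), was below the required mean of 1 CPM, and the other 50 were kept. They comprise 24 nucleoporins, 22 transport receptors and 4 genes of the Ran cycle.

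All samples were of Saos-2, an established cell line from a human osteosarcoma. One group of 3 received 0.20 µM AIL (ailanthone, a plant quassinoid) for 24 h, the IC50 according to the labels. The other group of 3 was given DMSO, the vehicle. All 6 cultures were of this single line, and no other dose or time was measured. The labels call the replicates biological without saying how cultures were separated, so p-values measure the spread between these 6 samples, which may be technical.

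Each library held 32540000 to 38050000 reads on the scale of the deposited values. Of 8 osteoblast markers, RUNX2 stood at 4.36 to 5.04 CPM, SPP1 and BGLAP were at or near 0 (at most 0.28 CPM), and the others are not reported here. Among 7 markers of immune, endothelial and epithelial cells, CDH5 was at or near 0 (at most 0.12 CPM) and CD68 was 0.73 to 0.79 CPM under DMSO and 2.48 to 3.26 CPM under AIL. Summed over these 2, the level was 0.76 to 0.91 CPM under DMSO and 2.59 to 3.26 CPM under AIL. The other markers of these cells were not among the genes listed. The part of such cells in the results was not tested.

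The pore is a ring of repeated subunits set in the nuclear envelope. Its scaffold consists of the Y complex and the inner ring, its channel is filled by nucleoporins rich in phenylalanine and glycine, and filaments face the cytoplasm while a basket faces the nucleus. Importin alpha reads the classical nuclear localization signal and is carried in by importin beta, most other importins and the exportins bind cargo directly, and Ran loaded with GTP in the nucleus releases import cargo and assembles export complexes. RCC1 loads Ran with GTP on chromatin, and RANGAP1, helped by RANBP1 and RANBP2, makes Ran hydrolyse it at the cytoplasmic side. At mitosis the pore is taken apart in human cells, and Ran and its partners then act on the spindle.

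Under AIL most of these genes were lower, by small amounts, while a smaller number rose. NUP50, a basket nucleoporin that helps release import cargo, rose by the largest log2 difference of the 50 (0.34), and KPNA1, an importin alpha, fell by the largest (-0.35). With limma on log2(CPM + 1) and an adjusted p under 0.05 over all 11069 genes tested, 27 of the 50 were lower (54%), against 25.9% of all genes tested. Higher calls were made for 11 (22%), against 28.2% of all genes. In either direction 38 were called (76%), against 54.1% of all genes. The median log2 difference was -0.09, and that of all genes tested was 0.01.

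The groups of 3 did not overlap for 39 of the 50 (78%), against 60.1% of all genes tested. Of these, 28 were lower and 11 higher, against 29.2% and 30.9% of all genes tested. These genes were better expressed than most, with a median DMSO level of 151.3 CPM against 33.8 CPM over all genes tested with a transcript length. Among the 7716 genes tested within their DMSO range of 15.1 to 894.8 CPM, 32.2% were called lower and 29.3% higher. Changes were small in size: 5 of the 50 (10%) were called and differed by over 1.2-fold on the log2(CPM + 1) scale, against 19.4% of all genes tested. In bulk RNA, fewer cells in a given state and less RNA per cell cannot be told apart.

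**Figure D1:**
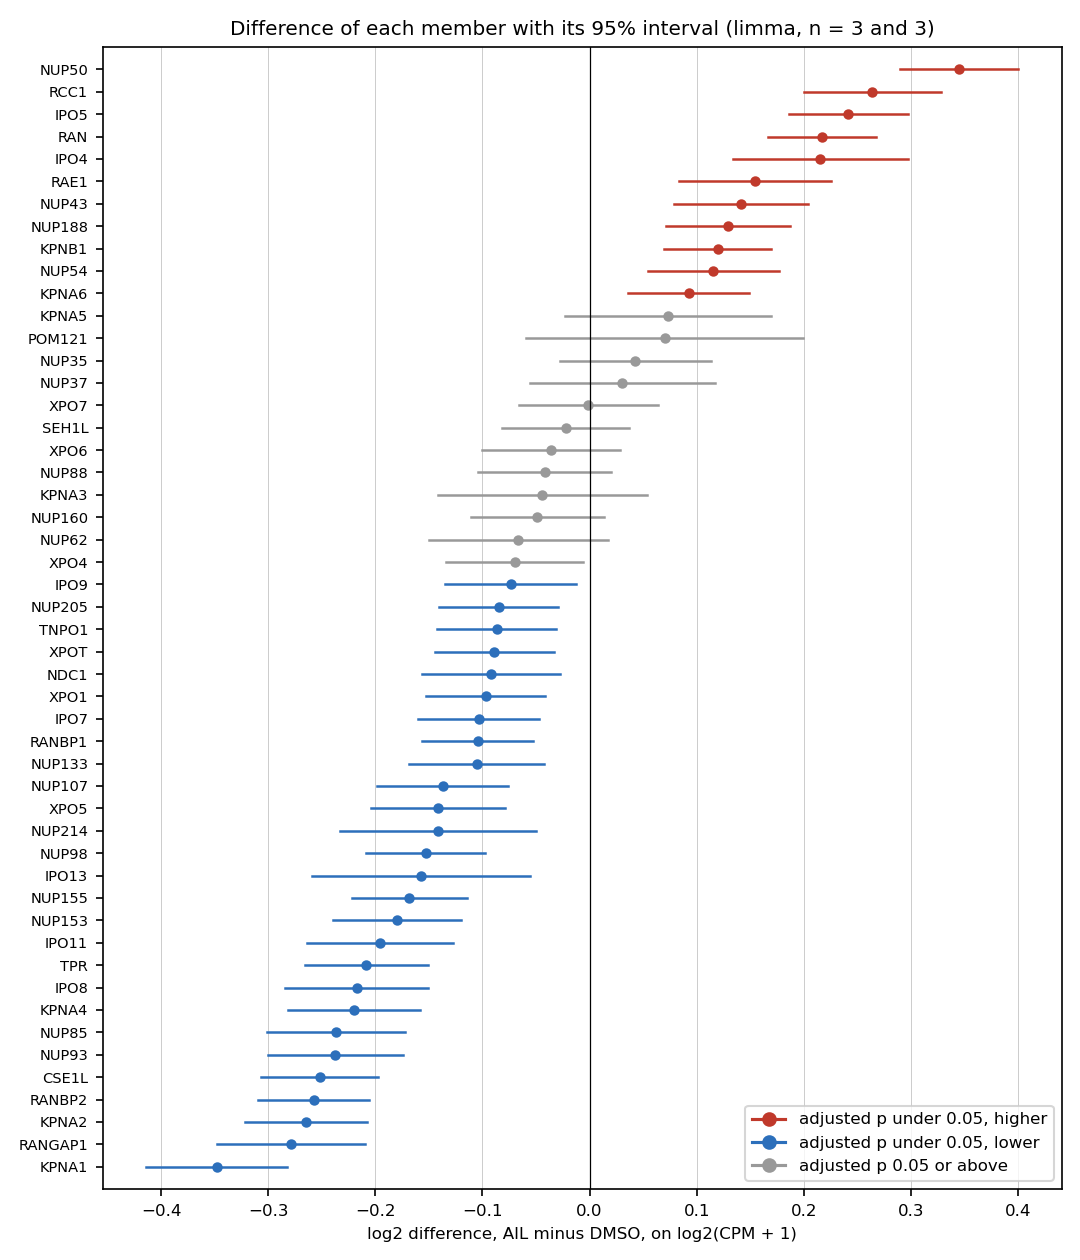
Log2 difference (AIL minus DMSO, on log2(CPM + 1)) of each of the 50 genes, with points for the estimate and lines for the 95% interval of limma (n = 3 per group). The genes run from NUP50 (0.34) to KPNA1 (-0.35), with 11 called higher, 27 called lower and 12 not called.

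The 4 genes of the Ran cycle split evenly, with 2 higher and 2 lower (100% called, against 54.1% of all genes tested). RAN, the GTPase itself, read 866.0, 854.7 and 860.0 CPM under DMSO and 1011.2, 980.7 and 1007.5 CPM under AIL. Its nucleotide exchange factor RCC1 read 175.0, 167.8 and 167.6 CPM under DMSO and 206.1, 210.9 and 196.5 CPM under AIL. For both genes every AIL sample lay above every DMSO sample. RAN was 16.2% higher (log2 difference 0.22, SE 0.0239, limma adjusted p = 7.88e-07) and RCC1 20.2% higher (0.26, SE 0.0303, limma adjusted p = 1.26e-06). The RAN call ended with quantile normalization, where its log2 difference was 0.04 (limma adjusted p = 0.0551), while RCC1 stood at 0.29 there.

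The genes that turn Ran off went the other way. RANGAP1, its GTPase-activating protein, read 312.4, 303.2 and 295.6 CPM under DMSO and 257.8, 257.1 and 236.2 CPM under AIL. RANBP1, which binds Ran-GTP and assists RANGAP1, read 244.6, 241.0 and 242.7 CPM under DMSO and 224.0, 224.3 and 228.8 CPM under AIL. Neither gene had overlapping groups. RANGAP1 fell by 17.6% (log2 difference -0.28, SE 0.0329, limma adjusted p = 1.75e-06) and RANBP1 fell by 7.02% (-0.10, SE 0.0246, limma adjusted p = 0.00166). RANBP1 shared 30.2% of its 50-base words with other annotated genes, so part of its reads could have been counted elsewhere. Its log2 difference became -0.17 once a fitted trend (transcript length, GC, abundance) was removed. With quantile normalization it was -0.07 (limma adjusted p = 0.0130).

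Summed over the Ran cycle, the level was 1565.8 to 1597.9 CPM under DMSO and 1668.9 to 1699.1 CPM under AIL, and RAN contributed most of it. Per kilobase of transcript, RAN (323.3 CPM per kb) and RANBP1 (290.0 CPM per kb) had the highest DMSO levels of the 50, followed by KPNA2 (191.9 CPM per kb). The lowest were KPNA5 (2.29 CPM per kb) and POM121 (2.76 CPM per kb). These levels depend on the transcript taken from the annotation for each gene.

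**Figure D2:**
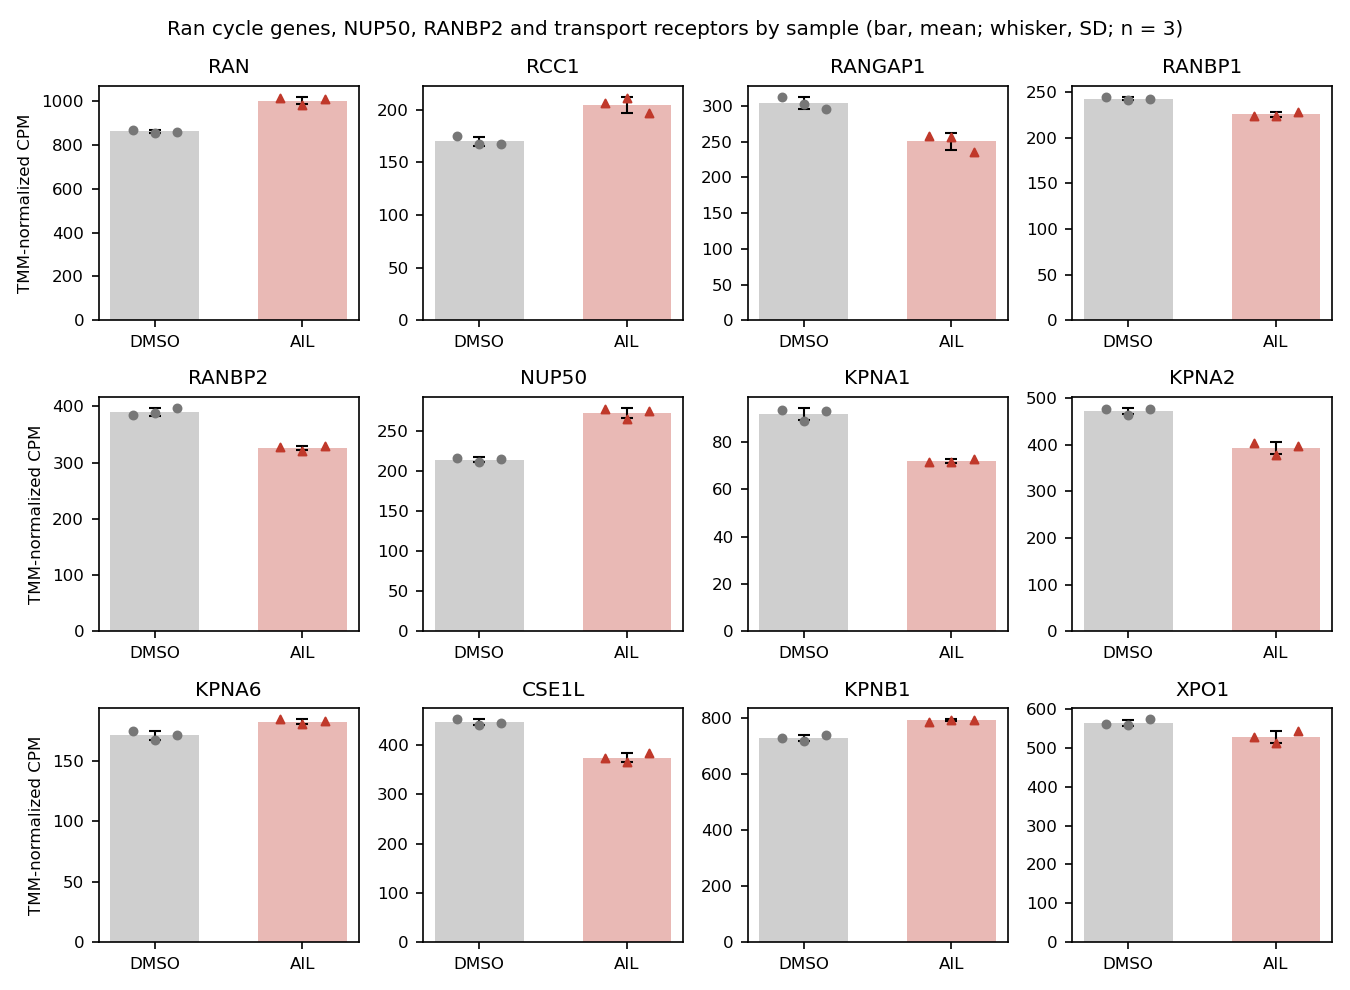
TMM-normalized CPM by group for RAN, RCC1, RANGAP1, RANBP1, RANBP2, NUP50, KPNA1, KPNA2, KPNA6, CSE1L, KPNB1 and XPO1, with bars for the mean, whiskers for the SD and a point per sample (n = 3). RAN, RCC1, NUP50, KPNA6 and KPNB1 were higher in every AIL sample than in any DMSO sample, and the other 7 genes were lower in every AIL sample.

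Promoter windows are shown for RAN and NUP50, which rose, and for KPNA2 and NUP98, which fell. These genes were picked with the motif results known, because they differed in the short motifs found in them. Each window holds the 250 bases before the RefSeq start (GRCh38.p14), 5′ to 3′ on the gene's strand, and capitals mark matches to any of the motifs searched. The windows lie at chr12:130871816-130872065 (+ strand, RAN), chr22:45163675-45163924 (+ strand, NUP50), chr17:68035485-68035734 (+ strand, KPNA2) and chr11:3797547-3797796 (- strand, NUP98).
RAN: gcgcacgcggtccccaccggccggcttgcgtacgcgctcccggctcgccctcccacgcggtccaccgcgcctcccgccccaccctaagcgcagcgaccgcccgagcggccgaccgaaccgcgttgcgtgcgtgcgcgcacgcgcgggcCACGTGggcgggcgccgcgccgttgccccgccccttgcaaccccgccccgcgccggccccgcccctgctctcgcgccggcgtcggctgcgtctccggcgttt
NUP50: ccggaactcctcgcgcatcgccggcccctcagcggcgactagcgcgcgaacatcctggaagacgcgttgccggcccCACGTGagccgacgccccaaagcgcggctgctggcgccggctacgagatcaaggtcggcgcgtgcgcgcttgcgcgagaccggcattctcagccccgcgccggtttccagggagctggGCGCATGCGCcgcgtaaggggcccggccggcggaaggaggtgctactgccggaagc
KPNA2: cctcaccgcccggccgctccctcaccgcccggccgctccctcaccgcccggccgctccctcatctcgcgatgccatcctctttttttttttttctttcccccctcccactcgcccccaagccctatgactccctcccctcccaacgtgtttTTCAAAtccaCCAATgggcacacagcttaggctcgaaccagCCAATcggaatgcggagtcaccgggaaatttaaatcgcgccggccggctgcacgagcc
NUP98: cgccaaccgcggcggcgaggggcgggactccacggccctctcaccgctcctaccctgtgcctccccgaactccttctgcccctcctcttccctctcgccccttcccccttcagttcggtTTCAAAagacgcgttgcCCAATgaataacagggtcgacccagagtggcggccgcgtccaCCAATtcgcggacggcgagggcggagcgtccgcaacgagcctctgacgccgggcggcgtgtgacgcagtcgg

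Motifs were searched on both strands of the first RefSeq window of each gene. They were the E-box CACGTG, the cell cycle homology region TTTGAA, the CCAAT box, the NRF1 core GCGCATGC, and the E2F sites TTTGGCGC and TTTCCCGC. Matches to different motifs did not overlap in the windows printed, and NUP50 held 2 NRF1 core matches that overlapped each other. RAN held an E-box at position -102 and NUP50 one at position -174 from the start. KPNA2 held the cell cycle homology region at position -99 and NUP98 at position -131, on the opposite strand. Of the genes described, 44 matched a window and KPNA4, KPNA5, KPNB1, NUP43, RANBP1 and XPO7 did not.

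An E-box occurred in 4 of the 9 windows of genes called higher (RAN, NUP50, NUP188 and IPO4) in 1 of the 25 of genes called lower (IPO7) and in 1 of the 10 of genes not called (KPNA3), against 6.49% of all 27305 windows and 9.20% of the 8486 of genes tested. The cell cycle homology region occurred in 7 of the 25 windows of genes called lower (KPNA2, NUP98, NUP153, NUP205, NDC1, IPO7 and IPO11) in 2 of the 10 of genes not called (NUP35 and NUP37) and in 0 of the 9 of genes called higher, against 13.6% of all windows and 8.05% of those of genes tested. A CCAAT box was found in 18 of 44 windows (40.9%, against 33.0% of all windows and 35.7% of those of genes tested). The NRF1 core was found in 5 (11.4%, against 2.81% and 5.29%) and an E2F site in 0 (against 1.96% and 3.36%). A CCAAT box was in 2 of 9 windows of genes called higher, 11 of 25 called lower and 5 of 10 not called. For the NRF1 core these were 2 of 9, 2 of 25 and 1 of 10. RCC1 and IPO5, which rose, held no E-box, and KPNA1, which fell most, held none of the motifs searched. These are letter matches in short windows, chosen with the results known and given as a description.

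The basket faces the nucleus and holds the member that rose most. NUP50 read 216.4, 210.9 and 215.7 CPM under DMSO and 277.1, 265.5 and 275.0 CPM under AIL. It was 27.2% higher, with all AIL samples above all DMSO samples (log2 difference 0.34, SE 0.0262, limma adjusted p = 9.34e-09). It shared 15.7% of its 50-base words with other annotated genes. The other basket genes fell: TPR, the long filament of the basket, read 491.1, 497.3 and 524.0 CPM under DMSO and 430.9, 434.6 and 442.6 CPM under AIL. NUP153, which anchors the basket, read 195.3, 202.6 and 206.9 CPM under DMSO and 176.9, 175.0 and 181.6 CPM under AIL. Both had groups that did not overlap, with TPR at a log2 difference of -0.21 (SE 0.0273, limma adjusted p = 5.68e-06) and NUP153 at -0.18 (SE 0.0283, limma adjusted p = 4.13e-05).

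On the cytoplasmic face, RANBP2 and NUP214 fell, RAE1 rose and NUP88 was not called. RANBP2, a giant filament protein that binds Ran and ligates SUMO, read 384.6, 388.9 and 397.0 CPM under DMSO and 327.1, 321.7 and 330.0 CPM under AIL. The groups stood well apart, and the level fell by 16.4% (log2 difference -0.26, SE 0.0245, limma adjusted p = 1.40e-07). Of its 50-base words, 27.1% occur in other annotated genes, mainly the RGPD copies. RAE1, an mRNA export factor, read 52.9, 54.2 and 55.3 CPM under DMSO and 61.0, 59.6 and 60.6 CPM under AIL, again without overlap (log2 difference 0.15, SE 0.0334, limma adjusted p = 8.45e-04).

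NUP214, the filament partner of NUP88, fell from 31.3 ± 0.284 to 28.3 ± 1.19 CPM (SD, n = 3; log2 difference -0.14, limma adjusted p = 0.0108). Without AIL replicate 2 its log2 difference was -0.11 and the call ended (limma adjusted p = 0.0583). NUP88 had a log2 difference of -0.04, with a 95% interval of -0.10 to 0.02, and shared 16.4% of its 50-base words with RPAIN.

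The Y complex forms the outer rings of the scaffold, and of its 7 genes under the symbol rule 3 fell, 1 rose and 3 were not called. In either direction 57.1% of these 7 were called, near the 54.1% of all genes tested. NUP85 read 81.8, 82.0 and 79.8 CPM under DMSO and 69.2, 69.2 and 67.9 CPM under AIL, with no overlap (log2 difference -0.24, SE 0.0305, limma adjusted p = 4.91e-06). NUP43 went up, from 124.6, 126.4 and 127.2 CPM under DMSO to 140.7, 133.9 and 143.0 CPM under AIL, also with no overlap (0.14, SE 0.0298, limma adjusted p = 6.65e-04). NUP107 and NUP133 of the complex had log2 differences of -0.14 and -0.11 and were called lower (limma adjusted p = 6.78e-04 and 0.00648). With the length, GC and abundance trend removed, these were -0.09 and -0.06. NUP160, SEH1L and NUP37 had log2 differences of -0.05, -0.02 and 0.03. Outside the symbol rule, SEC13 of this complex was called higher at 0.10 (limma adjusted p = 0.00908). Its partner AHCTF1 was called lower at -0.16 (limma adjusted p = 1.30e-04).

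The inner ring links the scaffold to the channel. NUP93, which holds the channel nucleoporins in place, read 200.2, 195.1 and 204.9 CPM under DMSO and 176.4, 166.7 and 165.8 CPM under AIL, with no overlap. It fell by 15.2% (log2 difference -0.24, SE 0.0299, limma adjusted p = 3.79e-06). NUP155 and NUP205 were called lower, at log2 differences of -0.17 and -0.09. The ring's large scaffold protein NUP188 read 135.45, 137.0 and 140.1 CPM under DMSO and 152.8, 147.8 and 150.7 CPM under AIL, a rise without overlap (log2 difference 0.13, SE 0.0274, limma adjusted p = 7.18e-04). NUP188 and NUP205 are related scaffold proteins, and their 95% intervals were 0.07 to 0.19 and -0.14 to -0.03. The NUP205 call ended without an intensity trend (limma adjusted p = 0.0653) and without DMSO replicate 1 (log2 difference -0.07, limma adjusted p = 0.0653). NUP35 was at 0.04 and was not called.

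Of the 3 central channel genes under the symbol rule, 1 fell, 1 rose and 1 was not called (66.7% called, against 54.1% of all genes tested). NUP98, which forms part of the permeability barrier, read 409.0, 401.25 and 414.1 CPM under DMSO and 375.6, 356.1 and 369.5 CPM under AIL. All AIL values lay below the DMSO values (log2 difference -0.15, SE 0.0263, limma adjusted p = 9.93e-05). NUP62, a core channel protein, read 82.9, 78.9 and 83.4 CPM under DMSO and 79.2, 82.1 and 72.96 CPM under AIL. These groups overlapped, and the log2 difference was -0.07 with a 95% interval of -0.15 to 0.02 (limma adjusted p = 0.167). Without AIL replicate 2 it was -0.10 and was called (limma adjusted p = 0.0487), and 31.4% of its 50-base words occur in other annotated genes.

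NUP54, the partner of NUP62 in the channel, rose from 100.45 ± 2.31 to 108.9 ± 0.802 CPM (SD, n = 3; log2 difference 0.12, limma adjusted p = 0.00271). NUPL1, an older symbol of the channel gene NUP58, is outside the symbol rule and was called higher at 0.09 (limma adjusted p = 0.0190). Of the membrane-anchored nucleoporins, NDC1 was called lower at -0.09 (limma adjusted p = 0.0174) and POM121 stood at 0.07, with 68.35% of its 50-base words shared with other annotated genes, POM121C foremost (53.5%). The NDC1 call ended under several settings: quantile normalization (-0.05), removal of the length, GC and abundance trend (-0.04), no intensity trend (limma adjusted p = 0.0850), and leaving out DMSO replicate 2 (-0.08), DMSO replicate 3 (-0.09) or AIL replicate 2 (-0.06).

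**Figure D3:**
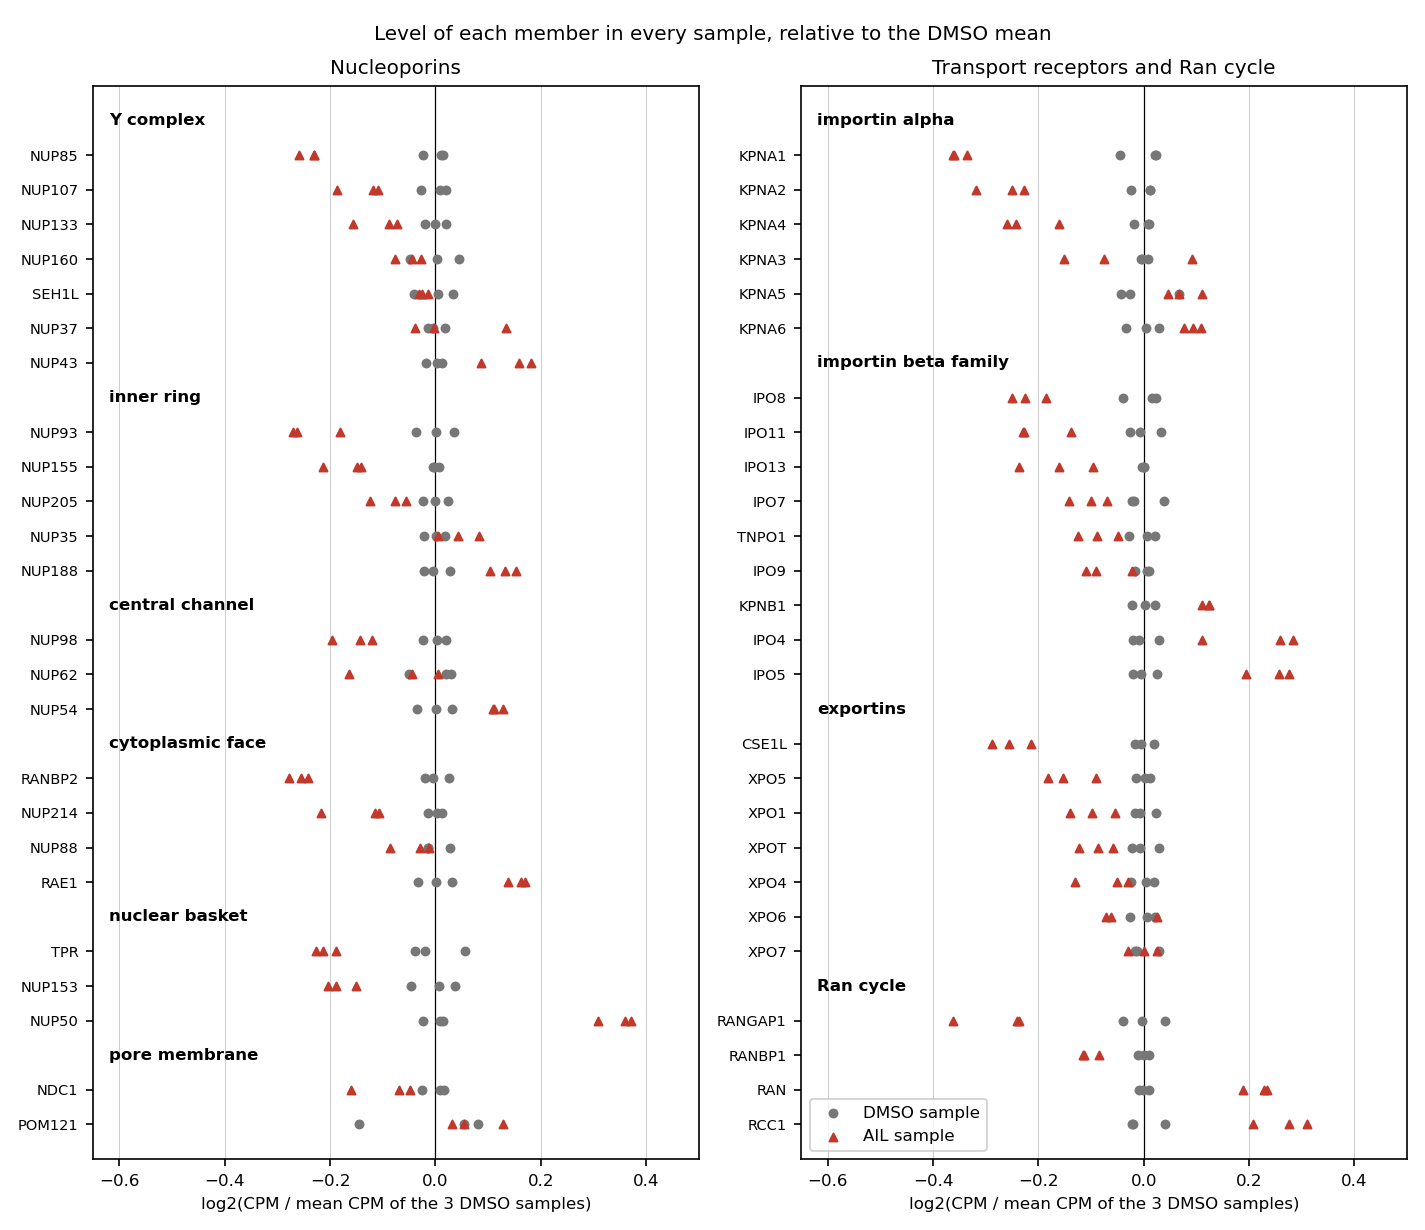
Level of each of the 50 genes in every sample as log2(CPM / mean CPM of the 3 DMSO samples), grouped by place in the pore or role in transport (grey circles, DMSO; red triangles, AIL). Most AIL triangles lie left of the DMSO circles. By the mean of their AIL samples, NUP50, RCC1, IPO5, RAN and IPO4 lie farthest to the right. IPO4 in AIL replicate 3 lies nearer to the DMSO circles than its other AIL samples.

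Of the 6 importin alpha genes, which bind the classical import signal, KPNA1, KPNA2 and KPNA4 fell and KPNA6 rose. KPNA3 and KPNA5 were not called, which left 66.7% called, against 54.1% of all genes tested. KPNA1 read 93.2, 89.0 and 93.1 CPM under DMSO and 71.4, 71.5 and 72.8 CPM under AIL. KPNA2, the importin alpha abundant in dividing cells, read 475.3, 463.7 and 475.2 CPM under DMSO and 402.7, 378.1 and 396.5 CPM under AIL. KPNA4 read 189.6, 186.2 and 189.7 CPM under DMSO and 159.3, 157.3 and 168.6 CPM under AIL. For KPNA1, KPNA2 and KPNA4 the groups were separate. KPNA1 fell by 21.7% (log2 difference -0.35, SE 0.0312, limma adjusted p = 6.67e-08), KPNA2 fell by 16.8% (-0.26, SE 0.0270, limma adjusted p = 3.16e-07) and KPNA4 fell by 14.2% (-0.22, SE 0.0292, limma adjusted p = 6.67e-06). KPNA1 and KPNA2 shared 18.9% and 17.3% of their 50-base words with other annotated genes.

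KPNA6 rose from 170.8 ± 3.82 to 182.1 ± 2.03 CPM (SD, n = 3; log2 difference 0.09, limma adjusted p = 0.00755), and without DMSO replicate 2 it stood at 0.08 and was not called (limma adjusted p = 0.0615). KPNA3 stood at -0.04 with a 95% interval of -0.14 to 0.05, and without AIL replicate 3 at -0.11 and called (limma adjusted p = 0.00738). KPNA5 stood at 0.07. Per kilobase of transcript, KPNA2 made up 72.1% of the summed importin alpha level under DMSO and 69.7% under AIL, and KPNA6 8.70% and 10.8%. The CPM summed over the 6 genes was 994.5 to 1021.6 under DMSO and 871.2 to 916.2 under AIL, without overlap.

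Importin alpha returns to the cytoplasm with CSE1L, its dedicated exportin. CSE1L read 451.8, 440.5 and 444.2 CPM under DMSO and 372.9, 364.8 and 384.3 CPM under AIL. Every AIL value lay below the DMSO values, and the level fell by 16.05% (log2 difference -0.25, SE 0.0258, limma adjusted p = 3.16e-07), close to the KPNA2 value of -0.26. KPNB1, the importin beta that carries importin alpha inward, went up instead, from 729.4, 717.25 and 739.0 CPM under DMSO to 786.6, 794.1 and 793.5 CPM under AIL. The KPNB1 groups did not overlap (log2 difference 0.12, SE 0.0236, limma adjusted p = 3.73e-04), but with quantile normalization the difference was 0.03 and was not called (limma adjusted p = 0.294).

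The other importins of the beta family bind their cargo directly. IPO5, which imports ribosomal proteins and histones, read 571.4, 553.9 and 559.9 CPM under DMSO and 670.8, 642.75 and 679.9 CPM under AIL. IPO4, an importer of histones and ribosomal proteins, read 88.2, 85.2 and 85.9 CPM under DMSO and 105.2, 103.4 and 93.3 CPM under AIL. Both rose without overlap, IPO5 by 18.3% (log2 difference 0.24, SE 0.0264, limma adjusted p = 6.83e-07) and IPO4 by 16.4% (0.22, SE 0.0389, limma adjusted p = 1.59e-04). The IPO4 value is uncertain as to its gene, since 95.1% of its 50-base words also occur in 1 other annotated gene.

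The remaining importins under the symbol rule fell. IPO8 went from 89.96 ± 2.09 to 77.2 ± 1.71 CPM and IPO11 from 104.3 ± 2.13 to 91.0 ± 3.36 CPM (SD, n = 3). The log2 differences of IPO8, IPO11, IPO13, IPO7 and TNPO1 were -0.22, -0.20, -0.16, -0.10 and -0.09. TNPO1, which imports RNA-binding proteins, was not called without an intensity trend (limma adjusted p = 0.0675), and IPO7 was at -0.24 with quantile normalization. IPO9 was closest to the threshold, at -0.07 (limma adjusted p = 0.0401). Its call ended with quantile normalization (-0.06), with no intensity trend (limma adjusted p = 0.115), and without DMSO replicate 1, 2 or 3 (-0.07, -0.08 and -0.07) or AIL replicate 2 or 3 (-0.07 and -0.06).

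Of the 7 exportins, CSE1L, XPO5, XPO1 and XPOT fell, 0 rose and 3 were not called. The share called was 57.1%, near the 54.1% of all genes tested. XPO1, which exports proteins with a leucine-rich signal, read 561.3, 557.1 and 573.0 CPM under DMSO and 526.9, 511.9 and 542.7 CPM under AIL. Its groups did not overlap, and the level fell by 6.50% (log2 difference -0.10, SE 0.0262, limma adjusted p = 0.00471). XPO5, which exports pre-miRNAs, had a log2 difference of -0.14 and XPOT, which exports tRNAs, one of -0.09. The XPOT call ended without an intensity trend (limma adjusted p = 0.0572), and its difference was -0.05 with the length, GC and abundance trend removed.

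XPO4 was at -0.07 and missed the threshold (limma adjusted p = 0.0614), although its groups did not overlap. It was called with the replicate number as a block (limma adjusted p = 0.0175), with median-of-ratios scaling (-0.08), and without AIL replicate 1 (-0.09) or AIL replicate 3 (-0.08). XPO6 and XPO7 had 95% intervals of -0.10 to 0.03 and -0.07 to 0.06. Summed over the 7 exportins, the level was 1769.4 to 1808.4 CPM under DMSO and 1602.9 to 1672.8 CPM under AIL. The 9 importins of the beta family under the symbol rule overlapped in sum, at 3110.8 to 3201.8 CPM under DMSO and 3152.5 to 3238.6 CPM under AIL.

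Replicates of these 50 genes also shared some of their spread. AIL replicate 2 was the lowest AIL sample for 35 of the 50 genes (70%), against 38.8% of all genes tested, among which AIL replicate 3 was lowest most often (41.2%). DMSO replicate 2 was the lowest DMSO sample for 30 (60%), against 33.8% of all genes tested. Without AIL replicate 2, 25 of the 50 were called lower and 11 higher, and without DMSO replicate 2 the counts were 25 and 10.

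Transcripts of these genes are long, with a median of 5024.5 bases against 3251 bases over all genes tested with a match. Across the 50 genes the Spearman correlation of log2 difference with transcript length was -0.22, and across the 10519 matched genes it was -0.13. The genes share their 6 libraries and are not independent replicates. With the trend over length, GC content and abundance removed, the median of the 50 was -0.05 and the calls were 26 lower and 11 higher.

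**Figure D4:**
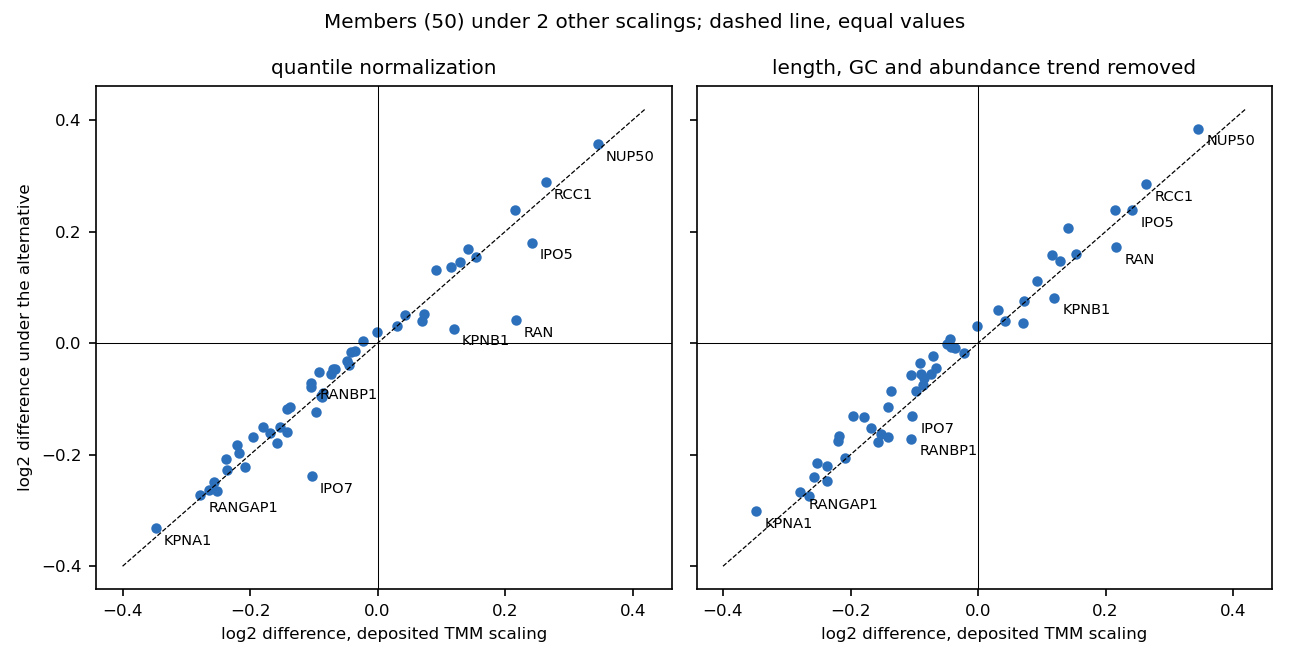
Log2 difference of each of the 50 genes under the deposited TMM scaling (x axis) against quantile normalization (left) and against removal of the length, GC and abundance trend (right), with a dashed line of equal values. RAN (0.22 against 0.04), KPNB1 (0.12 against 0.03) and IPO7 (-0.10 against -0.24) lie farthest from the line under quantile normalization.

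Genes of pore assembly and transport outside the symbol rule were followed in a separate list of 18, of which 7 rose and 2 fell (median log2 difference 0.07). The share called was 50%, below the 54.1% of all genes tested. The pore protein AAAS (ALADIN) rose from 33.8 ± 1.87 to 41.8 ± 1.62 CPM, RANBP10, a Ran-binding protein, from 21.4 ± 0.618 to 27.0 ± 0.664 CPM, and RANGRF, a Ran-binding regulator of transport, from 19.2 ± 0.480 to 23.9 ± 1.12 CPM (SD, n = 3). Of 23 mRNA export genes, 8 rose and 7 fell (median -0.01). The export adaptor POLDIP3 and PCID2 each rose by 0.26 (log2), and the cap-binding gene NCBP1 was called lower at -0.27. In either direction 65.2% of the mRNA export genes were called, against 54.1% of all genes tested.

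The SUMO modifier is attached to RANGAP1 at the pore, and of 16 SUMO cycle genes 7 fell and 2 rose (median -0.06). In all 56.25% of them were called, near the 54.1% of all genes tested. SUMO2 and SUMO3 were called lower at -0.14 and -0.15, and the SUMO ligase PIAS4 was called higher at 0.35. Of 19 genes of the nuclear envelope and lamina, 11 fell and 4 rose (median -0.11), or 78.9% called, against 54.1% of all genes tested. SUN2, which links the lamina to the cytoskeleton, fell by 41.1%, from 66.6 ± 2.58 to 39.2 ± 3.22 CPM (SD, n = 3; log2 difference -0.75, limma adjusted p = 1.52e-09). LBR, a lamin B receptor of the inner membrane, and TMPO, a lamina-associated protein, were called lower at -0.45 and -0.34.

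The pore and the lamina are taken apart and rebuilt at each division, so mitotic genes were followed in the same samples. Of 40 genes of G2/M and mitosis, 38 were called lower and 0 higher, against 25.9% and 28.2% of all genes tested. Their median log2 difference was -0.32, against -0.09 for the 50 transport genes. The mitotic genes with the smallest p were ASPM, TOP2A and TPX2, at -0.54, -0.53 and -0.47. Summed, the 40 genes stood at 8981.1 to 9251.6 CPM under DMSO and 7058.0 to 7320.2 CPM under AIL. The mitochondrially encoded transcripts, held as a sign of RNA quality, were lower as well (median -0.20). Of the 13 genes 10 were called lower (76.9%, against 25.9% of all genes tested). The smallest p was in MT-CO1, MT-ND6 and MT-CO2 (log2 differences -0.27, -0.53 and -0.23). Summed, the 13 genes stood at 4205.4 to 4373.7 CPM under DMSO and 3600.5 to 3726.0 CPM under AIL. The part of mitotic state or RNA quality in the values of the transport genes was not tested.

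**Figure D5:**
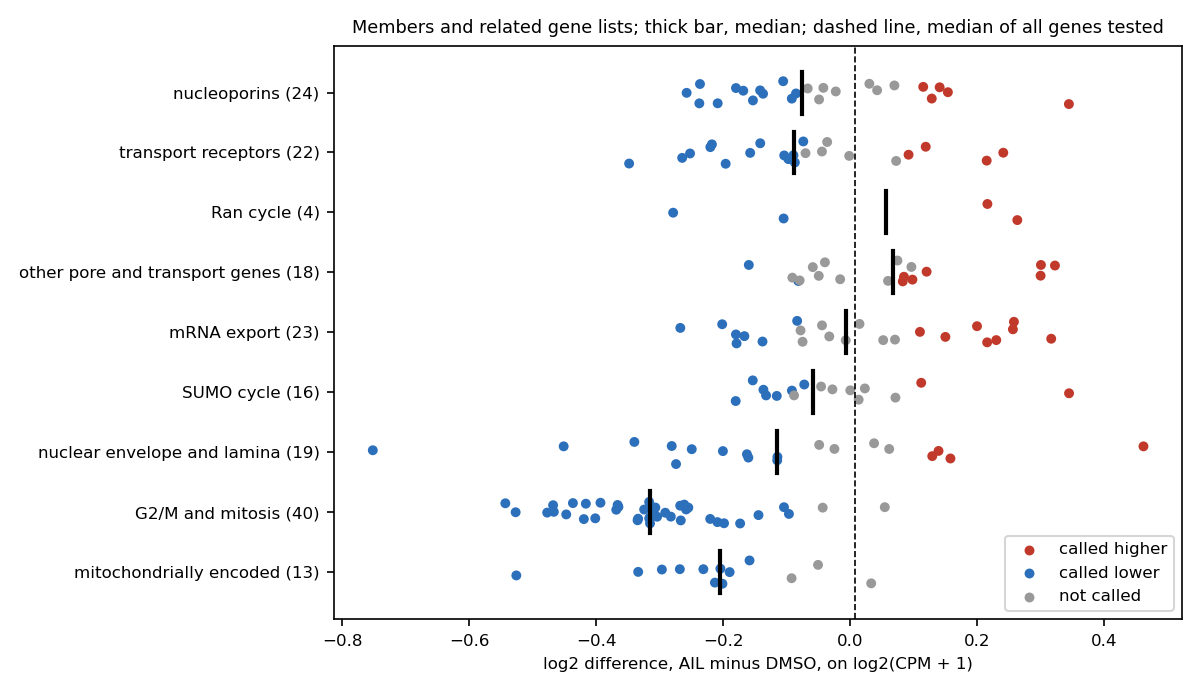
Log2 difference (AIL minus DMSO) of nucleoporins, transport receptors, Ran cycle genes and related lists, with a point per gene, a thick bar for the median and a dashed line for the median of all genes tested (0.01). The medians of nucleoporins (-0.08) and transport receptors (-0.09) lie left of the line, between that of the other pore and transport genes (0.07) and that of G2/M and mitosis (-0.32).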

How the data were processed

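RNA-seq was made from 3 DMSO and 3 AIL cultures of Saos-2. The authors deposited TMM-normalized CPM per gene symbol, to 2 decimals. RSEM and edgeR 3.8.5 are named without a role, per the submitters' processing notes. The sources used here do not give aligner, build, annotation or strand setting, so reads of overlapping or antisense genes cannot be told apart. TMM scaling hides a shift common to most genes.

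Depth was read from the step between low CPM values. Within 0.2 reads, about what rounding to 2 decimals allows, 99.9 to 100% of values up to 100 reads were whole. No count test was run.

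The test was limma's moderated test (limma 3.58.1, R 4.3.3), two-sided, with an intensity trend, on log2(CPM + 1). Benjamini-Hochberg adjustment ran over 11069 genes whose mean reached 1 CPM. This scale understates changes of low genes.

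Genes given in full were the 8 highest and 8 lowest called log2 differences and 13 fixed transport genes. Of each list outside, up to 3 called genes with the smallest p were to be named. SEC13, AHCTF1 and NUPL1 were named as well, for their place in the pore. The genes, lists and motifs were chosen with earlier results of these data known.

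Lengths, GC content and 50-base words came from GENCODE transcripts, matched for 50 of 50 genes and 93.8% of the table. Promoter windows came from RefSeq (GRCh38.p14).

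Samples of the same replicate number deviated together from their group means, with correlations of 0.159, 0.133 and 0.129 (unlike numbers, -0.179 to 0.0210). The pairing comes from the data alone, and the block was an alternative.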

Additional observations from a re-analysis of the deposited data

How the results depend on the processing

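Under 16 alternatives the counts over all genes, over the 50 transport genes and over the 76 related genes stayed within 1.5 times their values. The alternatives were pseudocounts of 0.1 and 5, a minimum mean of 5 CPM or none, quantile or median-of-ratios scaling, no intensity trend, the replicate block, removal of the length, GC and abundance trend with and without the block, and leaving out each sample. Of the 38 called genes, 29 were called in the same direction under every alternative, and the exceptions are named beside their results. The replicate block gave 28 lower and 11 higher calls and changed only the XPO4 call. Of genes not called, the log2 difference of SEH1L turned to 0.0042 with quantile normalization, that of XPO7 to 0.0194 there and to 0.0298 with the trend removed (with and without the block), and that of KPNA3 to 0.0081 with the trend removed, also with the block. Leaving out 1 sample gave XPO7 -0.0141 to 0.0131, KPNA3 -0.111 to 0.0080 and NUP37 -0.0200 to 0.0648. The median of all genes was 0.0083 in the main fit, -0.0072 with quantile normalization and -0.00055 with median-of-ratios scaling. Each of these scalings holds the typical gene near 0, so these medians cannot show a shift common to most genes. POM121 had the lowest CPM of the 50 and the widest 95% interval (-0.06 to 0.20), and how much of that spread is counting error was not tested.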
